A study of Homo sapiens with 3 samples.

Results

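The genes described here are 8 genes of cholesterol synthesis and its control by the transcription factor SREBP2: SREBF2, HMGCS1, IDI1, FDPS, FDFT1, SQLE, DHCR7 and INSIG1. They were chosen by name, by matching the RefSeq accessions of the deposited tables to current gene symbols and summing FPKM over the entries of each gene, and all 8 were found among 26565 genes. FPKM is a fragment number divided by transcript length and library total, so that levels of different genes can be set side by side. The tables come from MTAC-P, a lung cancer cell line made from PC9 that resists EGFR tyrosine kinase inhibitors, grown in DMEM with 10% serum. There were 2 shBCAT1-labelled libraries, with a knockdown hairpin against BCAT1 named by the titles, and 1 control library with a hairpin against luciferase. Serum, resistance and cell line are shared by all 3 libraries, and nothing in the labels tells whether both shBCAT1-labelled libraries hold 1 hairpin, come from separate cultures or are clones.

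Cells make cholesterol from acetyl-CoA through mevalonate, isoprenoid diphosphates, squalene and a series of sterols. When sterols in the endoplasmic reticulum are low, the escort protein SCAP carries SREBP2 to the Golgi, where it is cut and released to activate genes of this pathway and of cholesterol uptake. When sterols are plentiful, INSIG proteins hold SCAP and SREBP2 back, and serum lipoproteins are a usual source of such sterols in culture. SREBP2 binds sterol regulatory elements next to sites for the factors NF-Y and SP1, and its targets include its own gene.

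Promoter sequences of 6 of the 8 genes were at hand, and stretches of them are shown because these genes are known for being switched together through such elements. Each stretch is the 120 bases just upstream of the outermost start of the gene in the deposited tables, written 5′ to 3′ on the gene's strand, from RefSeq on GRCh38.p14. Capitals mark matches on either strand to TCACNCCAC (a sterol regulatory element), CCAAT (the NF-Y box) and GGGCGG (the SP1 box). The stretches lie at chr22:41832959-41833078 (plus strand) for SREBF2, chr5:43313513-43313632 (minus) for HMGCS1, chr10:1049122-1049241 (minus) for IDI1, chr1:155308628-155308747 (plus) for FDPS, chr11:71448432-71448551 (minus) for DHCR7 and chr7:155297656-155297775 (plus) for INSIG1.
SREBF2: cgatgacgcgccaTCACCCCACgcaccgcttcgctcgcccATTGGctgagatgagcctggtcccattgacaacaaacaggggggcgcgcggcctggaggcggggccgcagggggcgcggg
HMGCS1: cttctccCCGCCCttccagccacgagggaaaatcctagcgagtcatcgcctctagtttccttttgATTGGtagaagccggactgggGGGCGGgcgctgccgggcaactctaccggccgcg
IDI1: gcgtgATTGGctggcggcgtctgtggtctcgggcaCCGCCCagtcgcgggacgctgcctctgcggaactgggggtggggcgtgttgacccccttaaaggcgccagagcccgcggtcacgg
FDPS: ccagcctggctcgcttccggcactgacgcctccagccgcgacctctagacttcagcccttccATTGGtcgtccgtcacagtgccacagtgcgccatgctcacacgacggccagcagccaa
DHCR7: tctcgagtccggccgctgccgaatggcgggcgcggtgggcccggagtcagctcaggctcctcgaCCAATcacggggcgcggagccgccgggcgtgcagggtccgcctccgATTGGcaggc
INSIG1: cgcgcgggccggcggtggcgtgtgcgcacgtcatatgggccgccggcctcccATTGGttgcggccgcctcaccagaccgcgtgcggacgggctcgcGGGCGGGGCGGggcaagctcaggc

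In the windows from 250 bases before to 50 bases after the RefSeq start nearest the deposited one, 1 for each gene, TCACNCCAC was found in 1 of these 6 genes, SREBF2, and in 1.13% of all 35116 promoters. It began at position -133 from the start of SREBF2, with an inverted CCAAT box beginning at position -106. CCAAT was found in 6 of 6 and in 34.6% of all promoters, and GGGCGG in 6 of 6 and in 45.0% of all promoters. The E-box CANNTG was found in 1 of 6, INSIG1, and in 68.7% of all promoters. With the windows of other RefSeq starts of these genes counted too, it was found in 3 of 6, with IDI1 and DHCR7 added. In the stretches shown, the only overlap is between neighbouring GGGCGG matches of INSIG1, which share a base. Positions count back from -1 at the base before the start, and a match is a description of the letters in this window only. TCACNCCAC was the only form of the sterol regulatory element searched, so genes without a match may hold another form.

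The libraries were checked before the genes were compared. FPKM summed to 44312 and 46145 in the shBCAT1-1 and shBCAT1-2 labelled libraries, against 53898 in the control, and their depth, read from the deposited confidence bounds, was 1.03 and 1.09 times that of the control. BCAT1 itself was at 1.05 FPKM (bounds 0.835 to 1.27) in the shBCAT1-1 labelled library and 0.241 FPKM (0.158 to 0.325) in the shBCAT1-2 labelled library. It was at 0.213 FPKM (0.129 to 0.297) in the control. The targeted gene was thus higher than the control in the shBCAT1-1 labelled library, and its bounds overlapped those of the control in the other. A knockdown is not seen in these values, and the cause was not tested. Every direction below is therefore between libraries as labelled. Of 6 epithelial markers, 5 (EPCAM, KRT7, KRT8, KRT18 and KRT19) were at 1 FPKM or more in all libraries, while CDH1 was at 0.951 and 1.24 FPKM in the shBCAT1-labelled libraries, against 0.923 FPKM in the control. The alveolar markers NKX2-1, SFTPB, SFTPC and NAPSA summed to at most 0.324 FPKM in a library, with SFTPC at 0 in all, and the fibroblast, leukocyte and endothelial lists to at most 0.259, 0.147 and 0.221 FPKM, with PTPRC, COL1A2, COL3A1, LUM and DCN at 0. In bulk RNA, fewer cells of a type and less RNA per cell cannot be told apart.

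No common change of the 8 genes was found in the shBCAT1-labelled libraries. On the log2(FPKM + 1) scale FDFT1 had the largest difference, lower in both libraries, and DHCR7 had the largest difference upward, but neither passed the test. By the ratio of the shBCAT1 mean to the control, INSIG1 was lower, at 0.598, than FDFT1, at 0.674, and SQLE higher, at 1.23, than DHCR7, at 1.21. SREBF2 and FDPS stood at nearly the same mean level as the control. At a mean of at least 1 FPKM, the minimum used for the test, 4 of the 8 genes were measured (SREBF2, FDPS, FDFT1 and DHCR7). Of these, 0 passed limma's moderated test at an adjusted p of 0.05, where 0.360% of 3889 genes fell and 0% rose. With no minimum, 0 of the 8 passed by limma among 16451 genes, where 0% fell and 0% rose. At an unadjusted p under 0.05, 0 of the 8 passed by limma, beside 4.80% of genes lower and 1.58% higher with no minimum, and 4.96% and 0.643% at a mean of at least 1 FPKM. No other tool was run, since the values are not counts. The p-values measure the spread between the shBCAT1-labelled libraries, which may be technical, and the single control is assumed to vary like them.

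**Figure D1:**
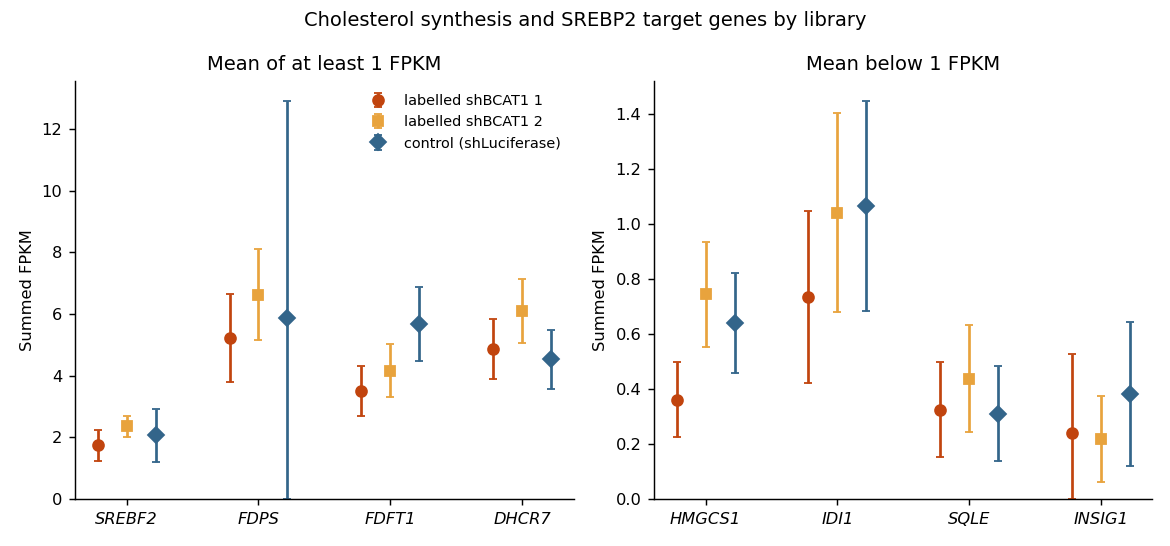
Summed FPKM of the 8 genes (y axis) in the shBCAT1-1 and shBCAT1-2 labelled libraries and in the control, at left for genes averaging 1 FPKM or more and at right for the others; bars are confidence bounds summed over entries as a root sum of squares and cover counting error of 1 library. FDFT1 lies at 3.49 and 4.16 FPKM in the shBCAT1-labelled libraries, below the 5.67 FPKM of the control, and the bounds of FDPS in the control reach from 0 to 12.9 FPKM.

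SREBF2 (chromosome 22, 41833079 to 41907308, hg38) encodes SREBP2. It was at 1.74 FPKM (bounds 1.23 to 2.24) in the shBCAT1-1 labelled library and 2.36 FPKM (2.02 to 2.70) in the shBCAT1-2 labelled library, against 2.06 FPKM (1.20 to 2.93) in the control. The control thus lies between the shBCAT1-labelled libraries, and all bounds overlap. The shBCAT1-labelled libraries averaged 2.05 ± 0.44 FPKM (SD, n = 2). On the log2(FPKM + 1) scale the fitted difference was -0.01 ± 0.22 (SE) and limma gave an adjusted p of 0.989. Its 95% interval ran from -0.63 to 0.60. The sign turned to a positive 0.03 with median-of-ratios scaling and is not read as a direction. Nearly all of the value lay on the coding entry, with 95.5% and 100% of it in the shBCAT1-1 and shBCAT1-2 labelled libraries, against 94.8% in the control.

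INSIG1 (chromosome 7, 155297776 to 155310235), the protein that retains SCAP and SREBP2 in the endoplasmic reticulum and is itself a target of SREBP2, was low. It stood at 0.240 FPKM (bounds 0 to 0.527) in the shBCAT1-1 labelled library and at 0.217 FPKM (0.0618 to 0.373) in the shBCAT1-2 labelled library, against 0.382 FPKM (0.121 to 0.644) in the control. Both libraries are below the control, at 62.7% and 56.9% of it, with a spread of 0.0157 FPKM between them (SD, n = 2), but all bounds overlap. The log2(FPKM + 1) difference was -0.17 ± 0.08 (SE), and limma gave an adjusted p of 0.802 in the fit without a minimum and a 95% interval from -0.49 to 0.15. With transcripts kept apart, the difference of the entry with the highest mean over all libraries was 0.01. The lower sum lies on another entry, the 2623-base one, which led in the control at 0.198 FPKM (bounds 0.0158 to 0.380). It was at 0.0718 FPKM (0 to 0.306) in the shBCAT1-1 labelled library and near 0 (upper bound 0.0504 FPKM) in the shBCAT1-2 labelled library. These bounds overlap those of the control, and the estimate can move reads between entries of a gene.

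HMGCS1 (chromosome 5, 43287470 to 43313512) makes HMG-CoA, the precursor of mevalonate. It was at 0.361 FPKM (bounds 0.224 to 0.497) in the shBCAT1-1 labelled library and 0.745 FPKM (0.554 to 0.935) in the shBCAT1-2 labelled library, against 0.641 FPKM (0.458 to 0.824) in the control. The shBCAT1-labelled libraries lie on opposite sides of the control, and their bounds are apart from each other, a gap of 3.28 times the counting error. Of the 8 genes it had the largest ratio between these libraries, 2.06 times in the shBCAT1-2 labelled library over the shBCAT1-1 labelled library. Against the control, the log2(FPKM + 1) difference was -0.09 ± 0.23 (SE), with an adjusted p of 0.930 by limma without a minimum and a 95% interval from -0.99 to 0.81.

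IDI1 (chromosome 10, 1040024 to 1049121) turns isopentenyl diphosphate into dimethylallyl diphosphate. It has a single entry, whose bounds correspond to 22 fragments in the shBCAT1-1 labelled library and 33 fragments in the shBCAT1-2 labelled library, against 31 fragments in the control. The values were 0.734 FPKM and 1.04 FPKM in the shBCAT1-1 and shBCAT1-2 labelled libraries, against 1.07 FPKM in the control. The ratio to the control was 0.689 (exact 95% interval 0.380 to 1.23) in the shBCAT1-1 labelled library and 0.977 (0.580 to 1.65) in the shBCAT1-2 labelled library. Both intervals include no change and cover counting error only. A change of the size seen in the shBCAT1-1 labelled library was not detectable at this depth. The fitted log2(FPKM + 1) difference was -0.13 ± 0.17 (SE), and limma gave an adjusted p of 0.863 without a minimum.

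FDPS (chromosome 1, 155308748 to 155320666) makes farnesyl diphosphate, from which both sterols and the lipid anchors of prenylated proteins derive. It had the highest level of the 8 genes in every library, at 5.23 FPKM (bounds 3.80 to 6.66) in the shBCAT1-1 labelled library and 6.63 FPKM (5.16 to 8.10) in the shBCAT1-2 labelled library, against 5.88 FPKM (0 to 12.9) in the control. The control again lies between the shBCAT1-labelled libraries, and its bounds include both. The log2(FPKM + 1) difference was 0.00 ± 0.23 (SE), and limma gave an adjusted p of 0.997 and a 95% interval from -0.63 to 0.64.

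FDFT1 (chromosome 8, 11795573 to 11839309) is squalene synthase, which commits farnesyl diphosphate to sterols. It was at 3.49 FPKM (bounds 2.69 to 4.30) in the shBCAT1-1 labelled library and 4.16 FPKM (3.30 to 5.01) in the shBCAT1-2 labelled library, against 5.67 FPKM (4.48 to 6.87) in the control. Both libraries are lower, at 61.6% and 73.3% of the control, and the bounds are apart from the control in the shBCAT1-1 labelled library only. The shBCAT1-labelled libraries averaged 3.82 ± 0.47 FPKM (SD, n = 2). The log2(FPKM + 1) difference was -0.47 ± 0.21 (SE), with an adjusted p of 0.797 by limma and a 95% interval from -1.05 to 0.10, and 9.62% of the genes tested had a difference as low or lower. Of the 11 entries of the gene, 1, matched to a transcript of 1393 bases, was near 0 in both shBCAT1-labelled libraries (upper bounds 0.0868 and 0.0821 FPKM), against 1.46 FPKM (0.783 to 2.13) in the control. Without it the gene was at 3.49 and 4.16 FPKM in the shBCAT1-labelled libraries, against 4.21 FPKM in the control, and the difference was -0.12. The choice to leave this entry out was made after its values were seen.

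SQLE (chromosome 8, 124998478 to 125022283) oxidises squalene and is one of the rate-limiting enzymes of the sterol branch. Its single entry corresponds to 14 fragments in the shBCAT1-1 labelled library and 20 fragments in the shBCAT1-2 labelled library, against 13 fragments in the control. The values were 0.324 and 0.438 FPKM in the shBCAT1-1 and shBCAT1-2 labelled libraries, against 0.310 FPKM in the control. The ratios to the control were 1.04 (exact 95% interval 0.456 to 2.41) in the shBCAT1-1 labelled library and 1.41 (0.668 to 3.09) in the shBCAT1-2 labelled library. Neither library can be told from the control at this depth. The log2(FPKM + 1) difference was 0.07 ± 0.12 (SE), with an adjusted p of 0.876 by limma without a minimum.

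DHCR7 (chromosome 11, 71434411 to 71448431) reduces 7-dehydrocholesterol to cholesterol at the end of the pathway. It was at 4.86 FPKM (bounds 3.89 to 5.84) in the shBCAT1-1 labelled library and 6.09 FPKM (5.05 to 7.13) in the shBCAT1-2 labelled library, against 4.52 FPKM (3.57 to 5.47) in the control. Both libraries are above the control, by 0.498 and 2.22 times the counting error, and all bounds overlap. The log2(FPKM + 1) difference was 0.22 ± 0.22 (SE), and limma gave an adjusted p of 0.848 and a 95% interval from -0.40 to 0.84. Both entries of the gene were used at a like ratio, with the more abundant holding 65.8% and 72.7% of the sum in the shBCAT1-labelled libraries, against 66.4% in the control.

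**Figure D2:**
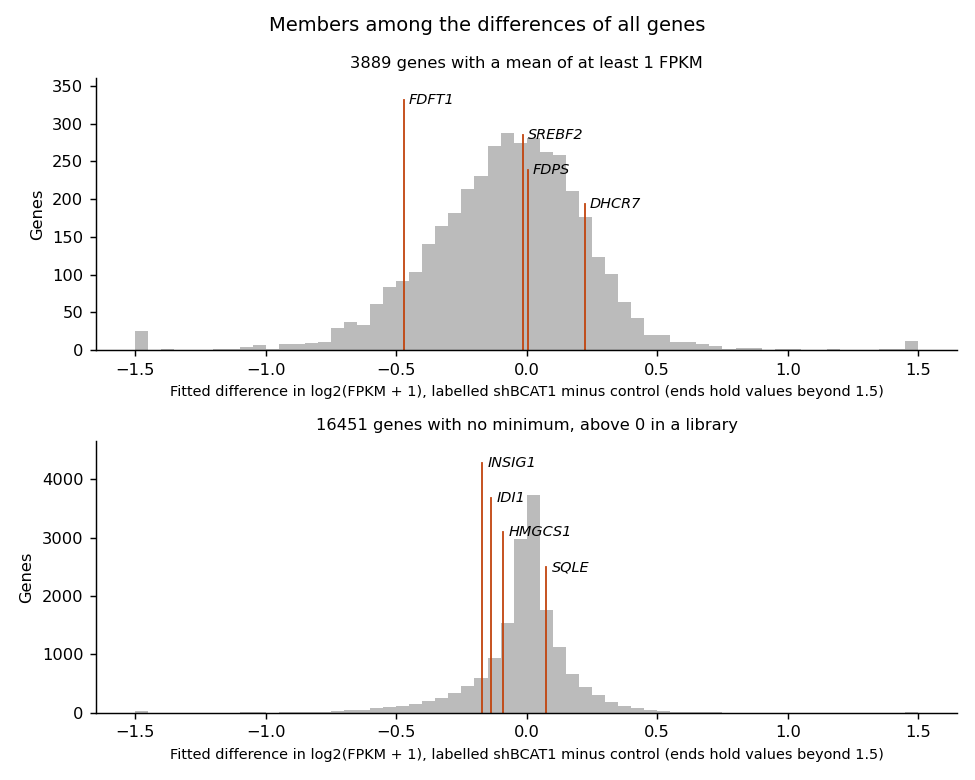
Fitted log2(FPKM + 1) differences, shBCAT1-labelled libraries minus control (x axis), as a histogram over genes (y axis), with the 8 genes as lines: above, 3889 genes averaging 1 FPKM or more, below, 16451 genes with no minimum. SREBF2 at -0.01 and FDPS at 0.00 lie at the centre of the histogram, FDFT1 at -0.47 and DHCR7 at 0.22 lie towards its sides.

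The order of levels was much the same in the 3 libraries. FDPS came first in each, followed by DHCR7 and FDFT1 in the shBCAT1-labelled libraries and by FDFT1 and DHCR7 in the control, and then SREBF2, IDI1 and HMGCS1. SQLE and INSIG1 were the lowest, with INSIG1 last in the shBCAT1-labelled libraries and SQLE last in the control. In every library the bounds of FDPS overlapped those of the next gene, as did those of IDI1 and HMGCS1 and of the genes below them. The step from the third gene to SREBF2 was larger than the bounds in all 3 libraries, at 3.68 and 3.90 times the counting error in the shBCAT1-1 and shBCAT1-2 labelled libraries and 3.82 times in the control. The place of FDFT1 relative to DHCR7 thus differed between the groups, but the bounds of these genes overlapped in the shBCAT1-1 labelled library and in the control. Summed over the 8 genes, FPKM came to 17.0 and 21.7 in the shBCAT1-1 and shBCAT1-2 labelled libraries, against 20.5 in the control.

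Counted over all 8 genes, 3 were lower than the control in both libraries (IDI1, FDFT1 and INSIG1), 2 were higher in both (SQLE and DHCR7), and 3 were lower in the shBCAT1-1 labelled library and higher in the shBCAT1-2 labelled library (SREBF2, HMGCS1 and FDPS). Among all genes with no minimum these shares were 35.3%, 27.4% and 21.5%, and among those averaging 1 FPKM or more 43.7%, 25.6% and 25.0%. Bounds were apart from the control on the same side in both libraries for 0 of the 8 genes, beside 1.05% of genes lower and 0.419% higher with no minimum, and 4.17% and 1.26% at a mean of at least 1 FPKM. In the shBCAT1-1 labelled library alone they were apart for 1 gene, FDFT1, beside 2.22% of genes lower with no minimum and 7.61% at a mean of at least 1 FPKM. In the shBCAT1-2 labelled library alone they were apart for 0 of the 8 genes, beside 2.20% of genes lower and 3.26% higher with no minimum, and 7.66% and 7.35% at a mean of at least 1 FPKM.

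The median log2(FPKM + 1) difference over the 8 genes was -0.05, beside -0.06 over the 3889 genes tested and 0.00 over all 16451. It was -0.16 in the shBCAT1-1 labelled library and 0.11 in the shBCAT1-2 labelled library, so that leaving out the shBCAT1-1 labelled library turned its sign. Over the genes tested the medians were -0.12 in the shBCAT1-1 labelled library and 0.01 in the shBCAT1-2 labelled library, and over all 16451 genes -0.01 and 0.01. Of the 8 genes, 7 were higher in the shBCAT1-2 labelled library than in the shBCAT1-1 labelled library, all but INSIG1, as were 68.0% of genes averaging 1 FPKM or more and 59.8% of genes with no minimum. The median-of-ratios size factors, which measure this shift of whole libraries, were 0.931 and 1.05 in the shBCAT1-1 and shBCAT1-2 labelled libraries, against 1.04 in the control. With that scaling HMGCS1 was at 0.388 and 0.710 FPKM in these libraries, against 0.616 FPKM in the control, and FDFT1 at 3.75 and 3.97 FPKM, against 5.45 FPKM. The part of library scale in the differences between the shBCAT1-labelled libraries was not tested further.

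The transcript entries that carried the values differed between libraries in HMGCS1, FDPS and FDFT1. HMGCS1 has 2 entries, matched to transcripts of 3506 and 3466 bases. The 3506-base entry was at 0.744 FPKM (bounds 0.555 to 0.933) in the shBCAT1-2 labelled library, where it held 99.9% of the gene. It was near 0 in the shBCAT1-1 labelled library (upper bound 0.0247 FPKM), and the 3466-base entry held 100% of the gene there and in the control. The shBCAT1-labelled libraries thus differed from each other in this entry, and 1 of them matched the control.

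FDPS has 5 entries. The entry of 1256 bases that led in both shBCAT1-labelled libraries was at 4.82 FPKM (bounds 3.61 to 6.03) and 3.71 FPKM (2.64 to 4.78) in the shBCAT1-1 and shBCAT1-2 labelled libraries, against 1.07 FPKM (0 to 6.25) in the control. The bounds of the control include both values. Fitted apart from the other entries, this one had a log2(FPKM + 1) difference of 1.33 ± 0.24 (SE), where the whole gene was at 0.00. The unadjusted p was 0.0124 and the adjusted p 0.718 by limma. At an unadjusted p under 0.05 by limma, 178 of the 4077 entries in that fit were lower and 88 higher. The entry was picked for the highest mean over all libraries, the shBCAT1-labelled ones included, so its difference partly follows from that choice. Another entry matched to the same transcript length was near 0 and at 2.60 FPKM in the shBCAT1-1 and shBCAT1-2 labelled libraries, against 2.68 FPKM in the control. The 1196-base entry was near 0 in both shBCAT1-labelled libraries (upper bounds 0.130 and 0.123 FPKM), against 1.59 FPKM (0.728 to 2.44) in the control. For FDFT1, the leading entry of 2176 bases was at 2.52 and 3.11 FPKM in the shBCAT1-labelled libraries, against 3.17 FPKM in the control. The entries of a gene overlap in the genome, so the estimate can move reads between them, and the share of each is less certain than the sum of the gene.

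**Figure D3:**
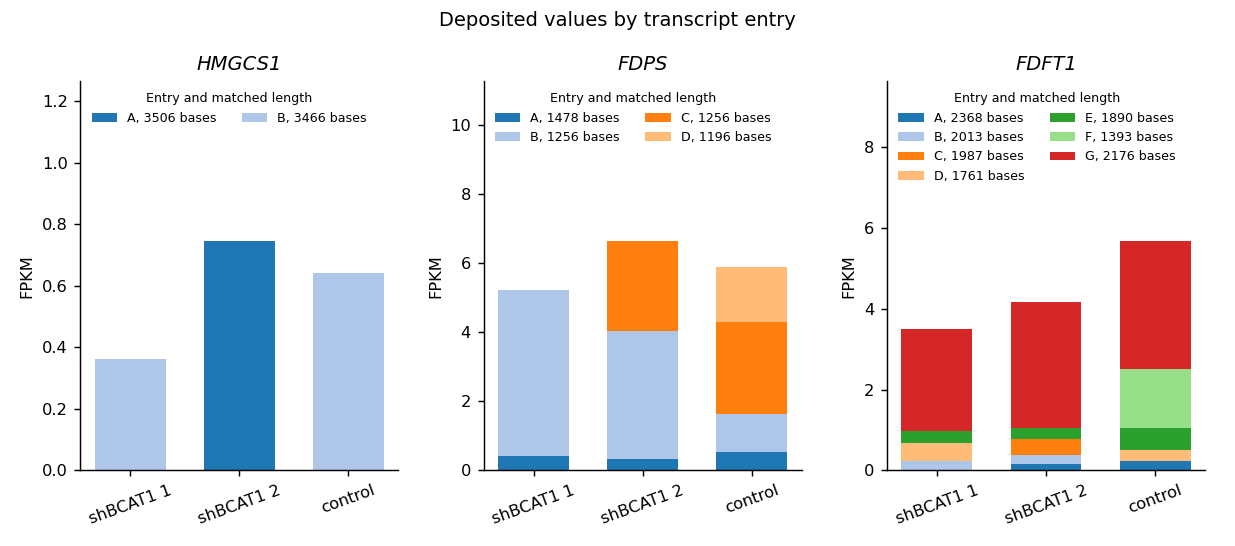
FPKM (y axis) of the transcript entries of HMGCS1, FDPS and FDFT1, stacked, in the shBCAT1-1 and shBCAT1-2 labelled libraries and in the control; letters and colours are entries with more than 0.1 FPKM in a library, with the length of the matched GENCODE transcript. The HMGCS1 entry of 3506 bases fills only the shBCAT1-2 labelled library, and the FDFT1 entry of 1393 bases appears only in the control.

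The wider pathway was read from lists of 21 synthesis genes, 10 genes of SREBP control and turnover and 13 genes of sterol uptake, storage and export, which include the 8 genes. A mean of 1 FPKM was reached by 9, 3 and 3 of them, and 0 passed limma in either direction in each list, with smallest adjusted p-values of 0.797, 0.909 and 0.807. Beside these stand 0.360% of genes lower and 0% higher at that mean and an adjusted p under 0.05. Without a minimum, 0 of the 44 genes passed at an unadjusted p under 0.05 by limma, beside 4.80% of 16451 genes lower and 1.58% higher. STARD4, at 0 in all libraries, had no fit. The median differences of the lists were -0.05, 0.01 and 0.00. In the synthesis list 8 genes were lower in both libraries, 4 higher in both and 9 lower in the shBCAT1-1 labelled library and higher in the shBCAT1-2 labelled library. These counts were 2, 4 and 4 in the list of SREBP control, and 3, 4 and 4 in that of uptake, storage and export. Beside them stand shares of 35.3%, 27.4% and 21.5% among all genes with no minimum. At a mean of at least 1 FPKM the shares were 43.7%, 25.6% and 25.0%.

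Among the synthesis genes that are not of the 8, MSMO1, which removes methyl groups of lanosterol derivatives, was at 0.853 and 1.05 FPKM in the shBCAT1-1 and shBCAT1-2 labelled libraries, against 1.49 FPKM in the control, with a log2(FPKM + 1) difference of -0.35 and a limma adjusted p of 0.797. MVK, PMVK and MVD are the enzymes that turn mevalonate into isopentenyl diphosphate. MVK was at 0.940 and 1.82 FPKM in the shBCAT1-labelled libraries, against 1.42 FPKM in the control, PMVK at 2.35 and 1.78 FPKM, against 2.55 FPKM, and MVD at 4.91 and 5.13 FPKM, against 5.99 FPKM. The sterol isomerase gene EBP was at 2.37 and 2.05 FPKM in the shBCAT1-labelled libraries, against 2.72 FPKM in the control. NSDHL, a sterol decarboxylase, was at 1.55 and 2.45 FPKM, against 1.98 FPKM. Of these 6 genes, MSMO1, PMVK, MVD and EBP were lower than the control in both libraries, as were 43.7% of all genes averaging 1 FPKM or more. MSMO1 averaged 0.953 FPKM in the shBCAT1-labelled libraries and reached the minimum only through the control, so its place among the lower genes partly follows from the minimum. For MVK and NSDHL the control lies between the shBCAT1-labelled libraries. The limma adjusted p was 0.848 for PMVK, 0.842 for MVD and 0.842 for EBP. No bounds of these 6 genes lay apart from the control. Among all genes averaging 1 FPKM or more, bounds were apart in both libraries for 4.17% lower and 1.26% higher. Taken singly, they were apart and lower for 7.61% in the shBCAT1-1 and 7.66% in the shBCAT1-2 labelled library, so few of 6 genes would be apart at these shares.

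**Figure D4:**
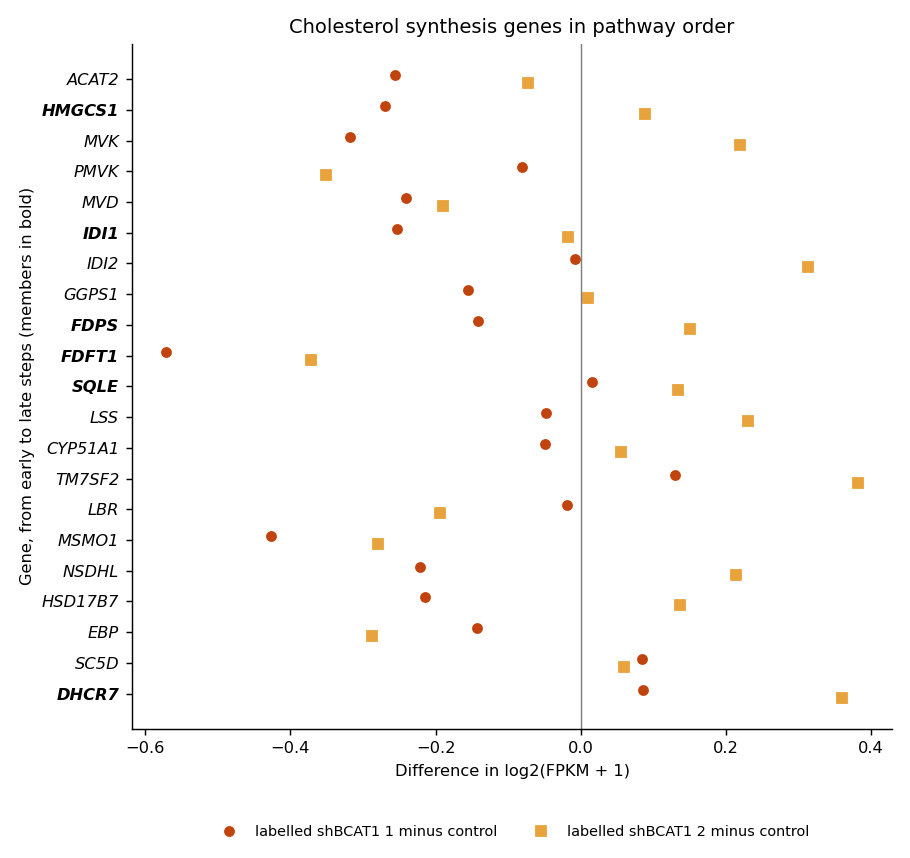
Differences in log2(FPKM + 1) from the control (x axis) of the 21 cholesterol synthesis genes, for the shBCAT1-1 (circles) and shBCAT1-2 (squares) labelled libraries, which share the control. Genes run roughly from early to late steps down the y axis, but GGPS1, of a side branch, is placed above FDPS. Points of a gene lie on opposite sides of 0 in 9 of the 21 genes, and FDFT1 has the lowest values, at -0.57 and -0.37.

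Of the genes that control SREBP, the escort gene SCAP was at 2.00 and 2.26 FPKM in the shBCAT1-1 and shBCAT1-2 labelled libraries, against 2.36 FPKM in the control. SREBF1, the related factor that drives fatty acid synthesis, was at 2.83 and 2.37 FPKM, against 2.37 FPKM in the control. NPC2, which hands cholesterol out of lysosomes, was the most abundant gene of the lists, at 17.8 and 21.6 FPKM in the shBCAT1-1 and shBCAT1-2 labelled libraries, against 24.5 FPKM in the control. The lipoprotein receptor SCARB1 was at 1.54 and 1.87 FPKM, against 1.28 FPKM, and the liver X receptor NR1H2 at 5.23 and 5.72 FPKM, against 4.76 FPKM. STARD4 was listed at 0 in all libraries. The bounds of NPC2 were apart from the control in the shBCAT1-1 labelled library, at 15.3 to 20.4 FPKM, against 21.4 to 27.6 FPKM in the control, but not in the shBCAT1-2 labelled library. The fitted differences of the uptake and export genes ran from -0.31 for NPC2 to 0.24 for SCARB1 on the log2(FPKM + 1) scale among those above the minimum.

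The genes nearest in pattern were taken as those with the smallest distance between their pair of differences from the control and the medians of the 8 genes, among 985 genes averaging 5 FPKM or more. They were IDH3B, a subunit of mitochondrial isocitrate dehydrogenase, at a distance of 0.02, EIF1, a translation initiation factor, at 0.03, and HMGN2, a nucleosome-binding protein, at 0.03, each over 3 libraries. Of the 985 genes, 9 lay within a distance of 0.05. The medians are not a pattern that the 8 genes share, since 3 were lower in both libraries, 2 higher in both and 3 split. Only 4 of the 8 genes averaged 1 FPKM or more, and differences of low genes are understated on this scale.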

How the data were processed

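RNA-seq libraries of MTAC-P cells, 2 labelled shBCAT1 and 1 control, were grouped by the knockdown label and the titles. The deposited values are FPKM with confidence bounds, computed by the authors per library for each RefSeq transcript and locus. Trim Galore, TopHat, Cufflinks and hg38 are named per the submitters' processing notes, while for versions, settings, annotation and strand nothing is given in the sources used here. Gene symbols came from RefSeq on GRCh38.p14 for 49281 of the 50337 accessions and from GENCODE release 29 for 625, and 431 stayed unnamed. Each gene's FPKM is the sum of its entries, with bounds combined as a root sum of squares with 2 SDs from value to bound, taking entries as independent. Read totals are not in the files. For 79.6% to 79.9% of genes with a single entry and under 200 fragments, the square of value over SD was within 0.05 of a whole number and was read as fragments, with exact Clopper-Pearson intervals for ratios that cover counting error only.

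limma 3.58.1 (R 4.3.3) was fitted on log2(FPKM + 1) with an intensity trend for genes averaging 1 FPKM or more with status OK, and without this minimum for the others, two-sided with Benjamini-Hochberg adjustment over all genes of the fit (1 residual and 2.99 prior degrees of freedom, 1.25 prior without the minimum). Fold changes on this scale understate those of low genes. Alternatives covered pseudocount, minimum, scaling, entries, trend and transcript length. The 8 genes, the lists and the tests were chosen with earlier results of these data known. All 8 genes and, of the lists, genes averaging 1 FPKM or more were to be named. A few genes of the lists are not reported here and enter no count of a list. STARD4 was added after its values were seen. Python 3.11.15, pandas 2.3.3, numpy 2.4.6, scipy 1.17.1 and matplotlib 3.10.9 were used.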

Additional observations from a re-analysis of the deposited data

How the results depend on the processing

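Under 10 alternatives with a fit, 0 of the 8 genes passed limma at an adjusted p of 0.05, as in the fit reported. At an unadjusted p under 0.05 by limma, INSIG1 passed without the intensity trend, at 0.0420 (adjusted p 0.671). The FDPS entry passed likewise with transcripts kept apart, at 0.0124 (adjusted p 0.718). Over all genes the count of 14 lower genes was 8 at a minimum mean of 5 FPKM, 0 with no minimum and 0 with transcripts kept apart, where fewer or more features were tested, and the count of 0 higher genes was 2 with the length trend removed and 1 with a pseudocount of 0.1. The median difference of the 8 genes, -0.05, was 0.013 with transcripts kept apart, and leaving out 1 shBCAT1-labelled library gave -0.16 to 0.11. SREBF2, at -0.01, was at 0.0339 with median-of-ratios scaling, 0.00301 with quantile normalization and 0.0165 with transcripts kept apart, where INSIG1, at -0.17 in the fit reported, was at 0.00952. With transcripts kept apart, FDPS moved to 1.33 and HMGCS1 to -0.49, for the entry with the highest mean over all libraries alone. That entry was picked by the same values, so these differences partly follow from the choice. With a pseudocount of 0.1 and of 5, INSIG1 was at -0.56 and -0.04 and HMGCS1 at -0.25 and -0.02. Leaving out a shBCAT1-labelled library gave -0.16 to 0.13 for SREBF2, -0.27 to 0.0883 for HMGCS1 and -0.14 to 0.15 for FDPS. In these comparisons of 1 library with 1, which have no test, 3 to 6 of the 8 genes were lower than the control and 0 to 1 had bounds apart. FDFT1 stayed lower under all alternatives run, from -0.57 to -0.12, with -0.12 without the entry found in the control alone, an alternative added after seeing the data. IDI1 stayed lower, and SQLE and DHCR7 higher, under all alternatives run. Part of this was fixed in advance, since the alternatives of minimum, trend, chromosomes and entries leave the differences of IDI1 and SQLE unchanged. All alternatives also use the same libraries, and IDI1 was at -0.02 with the shBCAT1-1 labelled library left out. For the reversals of sign given above the cause was not tested. No paired analysis was possible because the groups share fewer than 2 replicate numbers. With 1 control library, a shift of that library cannot be told apart from a difference between the groups, and the genes below 1 FPKM rest on few fragments, 13 to 33 for SQLE and IDI1.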
